A study of Mus musculus with 13 samples.

Results

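Ligands and receptors that restrain immune cells were followed in implantation sites of rat and mouse embryos carried in the mouse uterus. The 10 genes were the programmed death ligands Cd274 and Pdcd1lg2, the galectins Lgals1, Lgals3 and Lgals9, the receptor Havcr2, the cytokines Tgfb1, Tgfb2 and Il10, and the death ligand Fasl. All probe sets whose platform symbol was only 1 of these genes were taken, which gave 10 of 18193 named genes and 16 of the 45101 probe sets on the array. Of these, 13 passed a filter on dim signals and were tested, and Pdcd1lg2, Il10 and 1 of the 2 Fasl probe sets are described by their signals only.

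RNA of implantation site tissue, taken from the uterus where an embryo had implanted, was measured on 13 Affymetrix Mouse430_2 arrays. The recipients were female ICR mice of 25 g on day 3 of pseudopregnancy, and all sites, the mouse ones included, came from embryo transfer. Co-transfer sites held Wistar rat embryos in uteri that had received rat and mouse embryos together, rat sites held Wistar rat embryos transferred alone, and mouse sites held mouse embryos transferred alone. Rat embryos had been flushed on day 5 and mouse embryos on day 4. Sites were collected on day 9 (2 co-transfer, 2 rat and 2 mouse arrays) and on day 7 (3 co-transfer, 2 rat and 2 mouse arrays). The labels give no age of the recipients, do not name the strain of the mouse embryos, and do not say whether the arrays within a group were separate animals. The p-values therefore rest on the spread among these arrays alone, and that spread may be technical.

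CD274 and PDCD1LG2 are ligands of the receptor PD-1 and restrain activated T cells, and HAVCR2, also called TIM-3, is an inhibitory receptor on T cells, natural killer cells and macrophages for which galectin 9 is a ligand. Galectins are lectins that bind sugars on cell surfaces, and galectin 1 is known for its part in tolerance of the fetus in mice. TGF-beta and IL-10 are cytokines that dampen immune responses, TGF-beta being secreted in a latent form that must be activated, and Fas ligand triggers death of cells that carry Fas.

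Array medians lay between 141 and 205 signal units, and arrays of the same group correlated at 0.968 to 0.982 over the 22155 tested probe sets. Recorded hybridisation times placed the arrays in 4 wash runs. Co-transfer and rat sites of day 9 shared a run, as did rat and mouse sites of day 7, and replicate 3 of the day 7 co-transfer sites was hybridised and scanned apart from the rest. In the other comparisons the groups lay at least partly in different runs, so run and group cannot be told apart there. The Gapdh signal at the 3′ end over that at the 5′ end, a sign of RNA quality, was 1.54 and 1.44 on the day 7 mouse arrays and 2.56 to 4.07 on the other arrays. On day 9 this Gapdh ratio was 2.92 and 2.90 in mouse, 3.70 and 3.68 in rat and 3.76 and 4.07 in co-transfer sites. On day 7 it was 3.60 and 3.34 in rat and 2.95, 2.56 and 2.62 in co-transfer sites, so it differed between other groups too. The same ratio for Actb was higher on the day 7 mouse arrays, at 3.47 and 3.71, with 2.36 to 3.34 on all others. The part of RNA quality in comparisons with day 7 mouse sites, or in any other comparison, was not tested. All 10 measured decidual stroma markers and all 10 uterine epithelium markers passed the filter. Of 7 measured T and B cell markers only Cd8a passed it. The probes were designed for mouse transcripts, so the signal of a rat embryo's own transcripts may be low for want of a match. In whole tissue, fewer cells of a type and less RNA per cell cannot be told apart.

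The upstream sequences of Cd274 and Lgals9 are shown because interferon gamma is known to induce both genes, and genes of the interferon gamma axis are set beside them below. RefSeq's table held promoters for 8 of the 10 genes, with Lgals1 and Il10 unmatched. Each sequence runs 5′ to 3′ on the gene's own strand and gives the 250 bases before a start listed in GRCm38.p6. They lie at chr19:29367188-29367437 (plus strand) for Cd274 and chr11:78984925-78985174 (minus strand) for Lgals9. The Cd274 window lies inside the annotated gene (chr19:29362107-29388095), so the bases before that gene's outer start were not searched. Capitals mark a match to the interferon-stimulated response element, searched as GAAA, any 2 bases and GAAA, here read on the opposite strand.
Cd274: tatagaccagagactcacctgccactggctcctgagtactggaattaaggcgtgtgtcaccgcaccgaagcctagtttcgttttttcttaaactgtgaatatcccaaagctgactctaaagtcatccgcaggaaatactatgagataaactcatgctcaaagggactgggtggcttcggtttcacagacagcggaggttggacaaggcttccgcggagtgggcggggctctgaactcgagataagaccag
Lgals9: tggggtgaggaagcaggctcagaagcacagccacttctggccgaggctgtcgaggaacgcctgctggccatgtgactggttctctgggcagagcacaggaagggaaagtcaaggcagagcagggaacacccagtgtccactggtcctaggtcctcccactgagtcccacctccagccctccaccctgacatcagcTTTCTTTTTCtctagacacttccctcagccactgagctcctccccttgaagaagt
Both strands were searched for that element and for the gamma-activated site TTCNNNGAA. The Lgals9 window held 1 match of the response element on the opposite strand, with its first base 55 bases before the start, and the Cd274 window held neither motif. Over all 32851 promoters, 2.98% of windows of the same length held the response element and 7.02% the gamma-activated site.

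**Figure D1:**
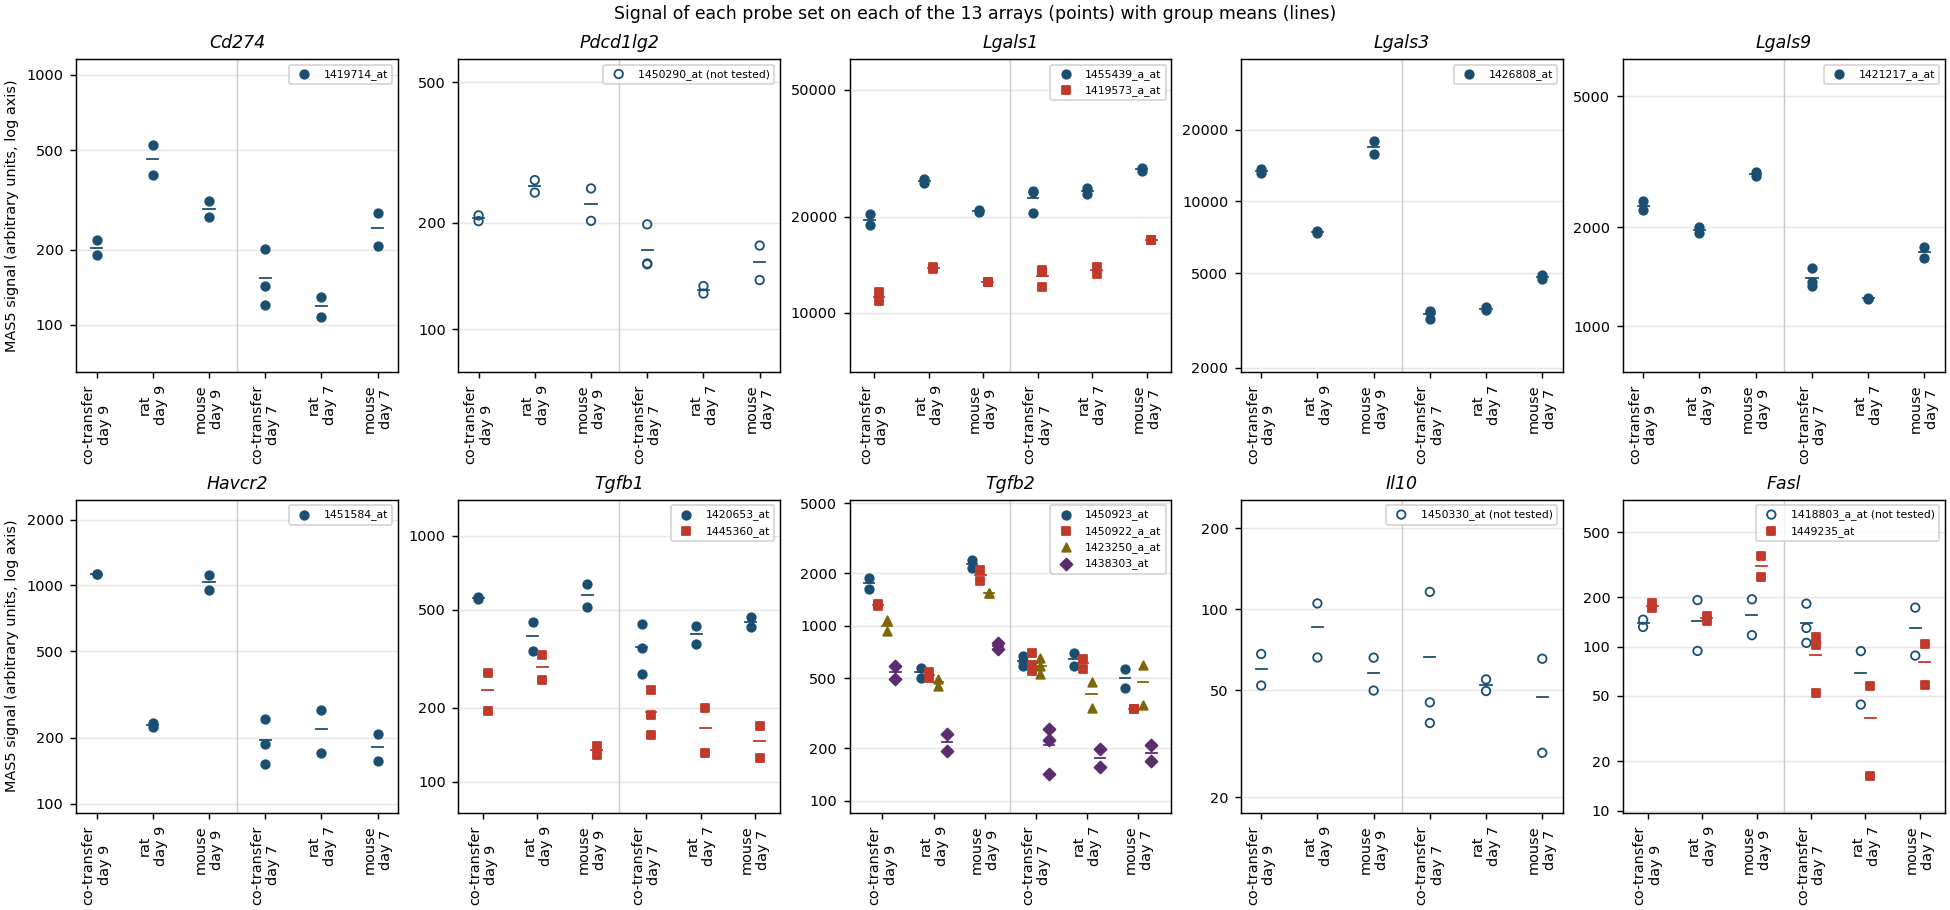
Signal of each probe set in MAS5 units on a log axis (1 panel a gene) in co-transfer, rat and mouse sites of day 9 and then of day 7. Points are arrays, short lines are group means and open points mark probe sets that were not tested. Havcr2 and Tgfb2 are high in co-transfer and mouse sites of day 9 and low in rat sites of day 9, while Cd274 is highest in rat sites of day 9.

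On day 9 Havcr2, Lgals3 and Tgfb2 were lower in rat sites than in both co-transfer and mouse sites, and Cd274 was lower in co-transfer than in rat sites. All differences and folds are of log2(signal + 57.1), a scale that shrinks changes of dim probe sets, and were called at an adjusted p under 0.05 by limma's moderated test with Benjamini-Hochberg adjustment over all 22155 tested probe sets. In all, 10 of the 13 tested probe sets were called between rat and mouse sites, 2 higher and 8 lower in rat sites (76.9% in all). Of all tested probe sets 17.1% were higher and 14.4% lower (31.5% in all). The median difference of the 13 was -0.83, against 0.06 over all. Between co-transfer and rat sites 9 were called, 6 higher and 3 lower in co-transfer sites (69.2% in all), against 15.7% higher and 18% lower over all (33.7% in all), with a median of 0.46 against -0.07. Between co-transfer and mouse sites 1 was called (Tgfb2), against 7.71% over all (3.94% higher and 3.77% lower), and 0 were called when replicate 2 of the mouse sites or either co-transfer array was left out. The 4 Tgfb2 probe sets read the same gene, and 5 of the 13 had passed the filter on the arrays of some groups only, so these counts describe the probe sets and are no test of them. With every array centred on its median, the day 9 co-transfer to rat calls became 8 higher and 1 lower, and the share of higher calls over all probe sets was 64.7% in place of 46.5%. The comparisons share arrays, so their counts are not independent of each other.

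On day 7 Lgals3 and Lgals9 were lower in both kinds of rat embryo site than in mouse sites. Rat and mouse sites differed in 5 of the 13, 1 higher (Tgfb2) and 4 lower (Cd274, Lgals1, Lgals3 and Lgals9) in rat sites, against 12.9% higher and 11.4% lower over all tested probe sets (24.3% in all). That count was 1 without replicate 2 of the mouse sites, and it was 2 and 3 without replicate 1 and replicate 2 of the rat sites. Co-transfer and mouse sites differed in 5, 1 higher (Tgfb2) and 4 lower (Lgals1 in both probe sets, Lgals3 and Lgals9) in co-transfer sites, against 17% higher and 14.2% lower over all (31.1% in all), and in 2 without replicate 2 of the mouse sites. Co-transfer and rat sites differed in 0 of the 13 by limma, against 0.966% of all (0.573% higher and 0.393% lower), with 3 at an unadjusted p under 0.05. Centred on the median, higher calls over all probe sets made up 40.6% in place of 53.2% for rat minus mouse and 28.6% in place of 54.5% for co-transfer minus mouse, while the 13 probe sets had 1 higher and 4 lower, and 1 higher and 5 lower.

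Between the days, 8 of the 13 rose and 0 fell in co-transfer sites (61.5%), against 10.8% that rose and 14.4% that fell over all tested probe sets (25.2% in all). In rat sites 5 rose and 0 fell (38.5%), against 20% that rose and 19.2% that fell over all (39.3% in all). In mouse sites 8 rose and 2 fell (76.9% in all), against 21.9% and 22.2% over all (44.2% in all). Without replicate 2 of the day 7 rat sites the rat count was 3. Lgals3 and Lgals9 rose in all 3 kinds of site, Havcr2 and Tgfb2 in co-transfer and mouse sites, and Cd274 in rat sites. The rat minus mouse difference changed between the days in 9 of the 13, 3 upward and 6 downward, against 16.5% upward and 16% downward over all (32.5% in all). The co-transfer minus rat difference changed in 6, 5 upward and 1 downward, against 12.4% and 13.7% (26.1% in all). Centred on the median, the rat sites had 4 rises and 2 falls among the 13, and higher calls over all probe sets made up 26.2% in place of 51.0% in rat sites and 23.0% in place of 49.7% in mouse sites.

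Cd274, the gene for PD-L1, reached its highest signals in rat sites of day 9. Its signal was 218 and 189.7 in co-transfer sites, 396 and 526 in rat sites and 269.8 and 313 in mouse sites on day 9. The 3 groups did not overlap, with rat sites on top and co-transfer sites at the bottom. Co-transfer sites differed from rat sites by -0.98 (SE 0.20, adjusted p = 0.00376) on the log2 scale, a 1.97-fold lower signal within the same wash run. Rat sites stood 0.56 (SE 0.20, adjusted p = 0.0538) above mouse sites, which did not pass the threshold of 0.05, and co-transfer sites differed from mouse sites by -0.42 (adjusted p = 0.247). Without replicate 1 of the day 9 rat sites the adjusted p of the rat to mouse difference was 0.0466.

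On day 7 the order of rat and mouse sites was the opposite. Cd274 signals were 200.5, 143 and 119.9 in co-transfer sites, 108 and 129 in rat sites and 208 and 280.4 in mouse sites. Rat and mouse sites did not overlap, while co-transfer sites overlapped rat sites. Cd274 was lower in rat than in mouse sites (log2 difference -0.77, SE 0.20, adjusted p = 0.0189) within their shared run. That call was lost without replicate 2 of the mouse sites (adjusted p = 0.133) and when rat replicate 1 or 2 was left out (adjusted p = 0.107 and 0.0527). The co-transfer to mouse difference was -0.52 (adjusted p = 0.0533) and passed without replicate 1 of the co-transfer sites (adjusted p = 0.0188).

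Between the days, Cd274 rose in rat sites by 1.55 (SE 0.20, adjusted p = 0.000219), a 2.93-fold change. The Cd274 probe set had passed the filter on 5 arrays only, in rat and mouse sites of day 9 and mouse sites of day 7. Rat sites of day 7 and all co-transfer sites lay under the filter. In co-transfer sites the day 9 minus day 7 difference was 0.32 (adjusted p = 0.233) and in mouse sites 0.22 (adjusted p = 0.394). The rat minus mouse difference changed between the days by 1.33 (SE 0.28, adjusted p = 0.00491), and the co-transfer minus rat difference by -1.23 (SE 0.27, adjusted p = 0.00785). Pdcd1lg2, the gene for PD-L2, lay below the filter on every array, with signals of 209.8 and 202 in co-transfer, 243 and 264 in rat and 202 and 250.1 in mouse sites on day 9. On day 7 it had 198, 153 and 153 in co-transfer, 132 and 126 in rat and 138 and 172 in mouse sites. These signals carry no test, and mouse sites of day 9 overlapped both other groups of that day.

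Havcr2, the gene for TIM-3, was high in co-transfer and mouse sites of day 9 and low in rat sites. Its signal was 1121 and 1121 in co-transfer sites, 225 and 234 in rat sites and 1112 and 949 in mouse sites. Rat sites lay far below both other groups. Co-transfer sites exceeded rat sites by 2.04 (SE 0.20, adjusted p = 4.29e-05), or 4.11-fold, and rat sites were below mouse sites (log2 difference -1.92, SE 0.20, adjusted p = 6.85e-05), or 3.79-fold. Co-transfer and mouse sites differed by 0.12 (adjusted p = 0.792), and their ranges only just failed to overlap. Neither the rat to mouse nor the co-transfer to rat call was lost under any alternative that was run.

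Day 7 signals of Havcr2 were 245, 152 and 187 in co-transfer sites, 269.8 and 172 in rat sites and 156 and 208 in mouse sites. All 3 groups overlapped, and rat sites of day 9 lay within the range of rat sites of day 7. Havcr2 rose between the days by 2.24 (SE 0.19, adjusted p = 2.8e-05) in co-transfer sites and by 2.19 (SE 0.20, adjusted p = 3.43e-05) in mouse sites, while in rat sites the difference was 0.07 (adjusted p = 0.82). The change in the rat minus mouse difference was -2.12 (SE 0.29, adjusted p = 0.000367) and that in the co-transfer minus rat difference 2.18 (SE 0.28, adjusted p = 0.000353). The probe set had passed the filter on 5 arrays only, those of the day 9 co-transfer and mouse sites and 1 of the day 7 rat sites.

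Macrophages are known to carry TIM-3, and macrophage markers did not all follow Havcr2. The macrophage and dendritic cell list (14 genes, 13 of them tested) summed to 21141 to 22309 in co-transfer, 22788 to 24537 in rat and 23355 to 23907 in mouse sites of day 9. Of the 13 genes, 2 were higher and 7 lower in co-transfer than in rat sites. Csf1r, a macrophage growth factor receptor that decidual cells are also known to carry, averaged 10814 in co-transfer, 4084 in rat and 9869 in mouse sites. It held a larger part of the co-transfer and mouse sums than of the rat sum, so the closeness of the sums rests partly on this gene. Adgre1, the gene for the macrophage antigen F4/80, averaged 927 in co-transfer, 1464 in rat and 1362 in mouse sites. The summed signal of natural killer cell markers (12 genes) was 64967 to 65407 in co-transfer, 39981 to 40733 in rat and 90362 to 92944 in mouse sites. The part of either cell type in the Havcr2 difference was not tested.

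**Figure D2:**
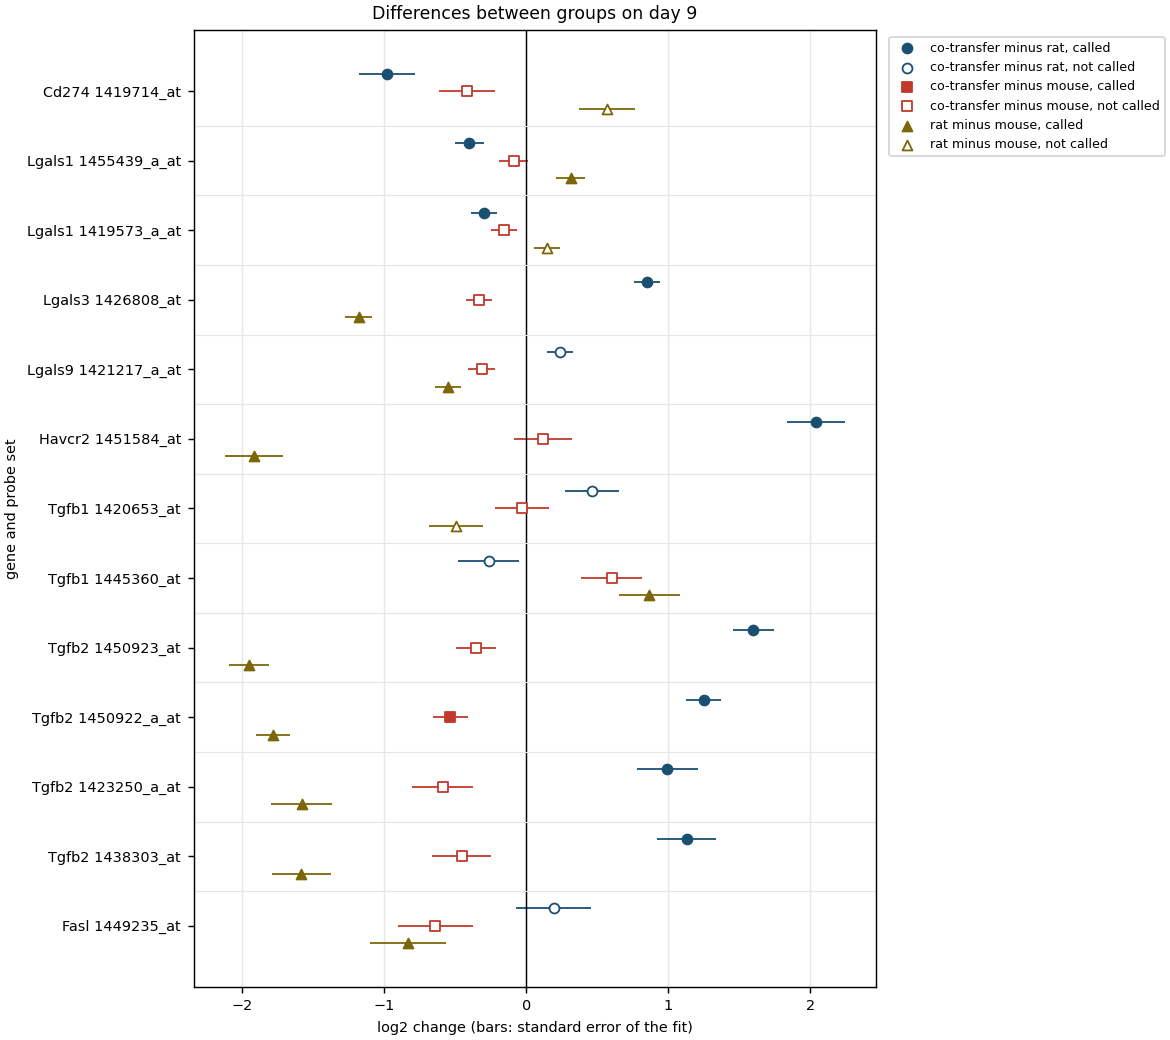
Log2 differences between groups on day 9 for the 13 tested probe sets, with bars for the standard error of the fit. Filled symbols passed an adjusted p of 0.05. The co-transfer minus rat and rat minus mouse differences of Havcr2, Lgals3 and Tgfb2 lie on opposite sides of 0, and only Tgfb2 1450922_a_at passed between co-transfer and mouse sites.

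Galectin 3, a lectin of macrophages and epithelia, showed the largest differences of the 3 galectins on day 9 and between the days. Lgals3 signals were 13712 and 13147 in co-transfer sites, 7516 and 7346 in rat sites and 15893 and 18038 in mouse sites on day 9. On day 7 they were 3417, 3196 and 3476 in co-transfer, 3482 and 3598 in rat and 4724 and 4890.1 in mouse sites. No neighbouring groups overlapped in the order of means, which ran from day 9 mouse, co-transfer and rat sites down to day 7 mouse, rat and co-transfer sites. On day 9 Lgals3 was higher in co-transfer than in rat sites by 0.85 (SE 0.09, adjusted p = 8.14e-05) and lower in rat than in mouse sites (log2 difference -1.18, SE 0.09, adjusted p = 8.52e-06), or 2.27-fold. Co-transfer and mouse sites differed by -0.33 (adjusted p = 0.0593), which passed without replicate 1 of the mouse sites (adjusted p = 0.0421). The natural killer cell marker sums given beside Havcr2 stood in the same order on day 9, and on day 7 they were 16652 to 17347 in co-transfer, 24672 to 25087 in rat and 33616 to 34796 in mouse sites. Neutrophil markers (8 genes) summed to 18079 to 18951 in co-transfer, 7224 to 7288 in rat and 22121 to 22542 in mouse sites of day 9. On day 7 they summed to 1860.1 to 2007 in co-transfer, 1752 to 1778 in rat and 5916 to 5999 in mouse sites. Most of the day 9 sum in co-transfer and mouse sites was S100a8, which averaged 17420 in co-transfer, 3278 in rat and 20549 in mouse sites. S100a9 averaged 187, 2418 and 769 in the same order, and Csf3r 159, 422 and 165. Of the 5 tested neutrophil markers, 2 were higher and 1 lower in rat than in mouse sites of day 9. Between co-transfer and rat sites 1 was higher and 2 lower in co-transfer sites. Macrophage and epithelium markers did not follow the day 9 order of Lgals3. The macrophage sums given beside Havcr2 overlapped between rat and mouse sites. Uterine epithelium markers (10 genes) summed to 11054 to 11582 in co-transfer, 87788 to 90151 in rat and 23897 to 24119.9 in mouse sites of day 9. On day 7 the sums of both lists were highest in mouse sites, as was Lgals3. The part of any of these cells in the Lgals3 signal was not tested.

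On day 7 Lgals3 was lower than in mouse sites in both kinds of rat embryo site, with log2 differences of -0.51 (adjusted p = 0.00178) in co-transfer and -0.44 (adjusted p = 0.00802) in rat sites. The rat call was lost without replicate 2 of the mouse sites (adjusted p = 0.0547) and when rat replicate 1 was left out (adjusted p = 0.0544). Lgals3 rose between the days in all 3 kinds of site, by 1.98 (adjusted p = 3.73e-07) in co-transfer, 1.06 (adjusted p = 1.89e-05) in rat and 1.80 (adjusted p = 6.4e-07) in mouse sites. The smaller rise of rat sites was itself called, with a change in the rat minus mouse difference of -0.75 (SE 0.13, adjusted p = 0.00189) and in the co-transfer minus rat difference of 0.92 (SE 0.13, adjusted p = 0.000559).

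Galectin 9, the TIM-3 ligand, showed smaller differences in the same order on day 9. Lgals9 had 2249.6 and 2395 in co-transfer sites, 2007 and 1918 in rat sites and 2944 and 2862 in mouse sites. Rat sites were lower than mouse sites (log2 difference -0.55, SE 0.09, adjusted p = 0.00147), while co-transfer sites differed from rat sites by 0.24 (adjusted p = 0.0799) and from mouse sites by -0.32 (adjusted p = 0.0725). The groups did not overlap. Cd274 had its day 9 maximum in rat sites, where Lgals9 had its day 9 minimum.

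On day 7 Lgals9 had 1325, 1506 and 1363 in co-transfer sites, 1211 and 1219.9 in rat sites and 1613 and 1743 in mouse sites, again without overlap. It was lower in rat than in mouse sites (log2 difference -0.45, SE 0.09, adjusted p = 0.00723), a call lost without replicate 2 of the mouse sites (adjusted p = 0.0593), and lower in co-transfer than in mouse sites (log2 difference -0.25, adjusted p = 0.0466). The co-transfer call was lost under 9 alternatives, among them without replicate 1 or 2 of the mouse sites (adjusted p = 0.0818 and 0.252) or replicate 1 or 3 of the co-transfer sites (adjusted p = 0.12 and 0.104). Lgals9 rose between the days by 0.71 (adjusted p = 0.000273) in co-transfer, 0.67 (adjusted p = 0.000418) in rat and 0.77 (adjusted p = 0.000171) in mouse sites. Unlike for Lgals3, neither change of a group difference between the days passed, at -0.11 (adjusted p = 0.586) for rat minus mouse and 0.04 (adjusted p = 0.828) for co-transfer minus rat.

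Galectin 1 was bright on every array and its group differences were small. Its probe set 1455439_a_at had 18762 and 20372 in co-transfer, 25454 and 26263 in rat and 20986 and 20614 in mouse sites on day 9, and 24079.8, 20451 and 23921 in co-transfer, 24520.3 and 23588 in rat and 27853 and 28346 in mouse sites of day 7. The other, 1419573_a_at, ranged from 10851 to 16881, and both correlated at 0.947 over the 13 arrays. Mouse sites of day 7 were highest in both probe sets and overlapped no other group.

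On day 9 Lgals1 was lower in co-transfer than in rat sites, with log2 differences of -0.40 (adjusted p = 0.0127) and -0.30 (adjusted p = 0.0311) in the 2 probe sets, in the opposite direction to Lgals3. The rat minus mouse difference of day 9 was 0.31 (adjusted p = 0.0409) and 0.14 (adjusted p = 0.271), so only 1455439_a_at passed. On day 7 Lgals1 was lower in co-transfer than in mouse sites, with log2 differences of -0.30 (adjusted p = 0.0329) and -0.37 (adjusted p = 0.00813), and the rat minus mouse difference was -0.22 (adjusted p = 0.146) and -0.32 (adjusted p = 0.0324). It fell between the days in mouse sites by 0.43 in both probe sets (adjusted p = 0.00719 and 0.00417). Every other called Lgals1 difference named here was lost under at least 1 alternative that left out an array: the largest adjusted p over those alternatives was 0.0891 and 0.164 for co-transfer minus rat of day 9 (without replicate 1 of the co-transfer sites), 0.142 for rat minus mouse of day 9 (without replicate 2 of the rat sites), 0.144 and 0.0512 for co-transfer minus mouse of day 7 (without replicate 2 of the mouse sites), and 0.156 for rat minus mouse of day 7 (without replicate 2 of the rat sites).

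Tgfb2, the gene for a TGF-beta isoform, separated rat sites from both other groups of day 9 in all 4 of its probe sets. Its probe set 1450923_at had 1630.1 and 1887 in co-transfer sites, 506 and 578 in rat sites and 2389 and 2135 in mouse sites. Both rat arrays lay below the other 4. Tgfb2 was higher in co-transfer than in rat sites by 1.60 (SE 0.14, adjusted p = 1.96e-05), or 3.03-fold, and lower in rat than in mouse sites (log2 difference -1.95, SE 0.14, adjusted p = 5.09e-06), or 3.87-fold. In the other 3 probe sets the co-transfer minus rat difference was 0.99 to 1.25 and the rat minus mouse difference -1.78 to -1.58, all called. Of these, 1438303_at had passed the filter on 4 arrays only, in co-transfer and mouse sites of day 9, where it was high. Its calls are therefore no separate support. The 4 probe sets correlated pairwise at 0.9 to 0.961 over the 13 arrays, and 3 of them were designed on the same source sequence, so they are not independent readings.

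Between co-transfer and mouse sites of day 9, Tgfb2 differed by -0.35 (adjusted p = 0.175) in 1450923_at, -0.54 (adjusted p = 0.0287) in 1450922_a_at, -0.59 (adjusted p = 0.132) in 1423250_a_at and -0.46 (adjusted p = 0.225) in 1438303_at. Mean signals of co-transfer sites lay below those of mouse sites in every probe set, but only 1450922_a_at passed. It passed no longer without replicate 1 or 2 of the mouse sites (adjusted p = 0.108 and 0.0508) or when co-transfer replicate 1 or 2 was left out (adjusted p = 0.115 and 0.139).

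On day 7 the Tgfb2 probe set 1450923_at had 586, 675 and 633 in co-transfer sites, 698 and 589 in rat sites and 567 and 441 in mouse sites. Mouse sites were lowest and did not overlap the others. In 1450922_a_at, with 596, 552 and 695 in co-transfer, 649.5 and 569 in rat and 336 and 335 in mouse sites, Tgfb2 was higher than in mouse sites by 0.77 (adjusted p = 0.000825) in co-transfer and 0.76 (adjusted p = 0.00185) in rat sites. The other 3 probe sets were not called in either comparison, with rat minus mouse differences of 0.33 in 1450923_at, -0.17 in 1423250_a_at and -0.07 in 1438303_at, so the 4 did not share a sign there. Of these, 1423250_a_at passed for co-transfer against mouse sites without replicate 1 of the mouse sites (adjusted p = 0.0321).

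Between the days Tgfb2 rose in co-transfer and mouse sites and was not called in rat sites. The day 9 minus day 7 differences of the 4 probe sets were 0.71 to 1.40 in co-transfer sites and 1.62 to 2.34 in mouse sites, all called, against -0.22 to 0.23 in rat sites. The rises of 1438303_at are no separate support, as it had passed the filter only in co-transfer and mouse sites of day 9. The smallest co-transfer change, of 1423250_a_at (adjusted p = 0.0252), was lost without replicate 1 or 2 of the day 9 sites (adjusted p = 0.0676 and 0.157) and without replicate 2 or 3 of the day 7 sites (adjusted p = 0.0715 and 0.0544). The rat minus mouse difference changed between the days in all 4 probe sets, by -2.55 to -1.41, and the co-transfer minus rat difference in 3 of them, by 0.97 to 1.62. The smallest of these 3, of 1438303_at, was lost without replicate 1 of the day 7 rat sites, replicate 2 of the day 9 rat sites or replicate 1 of the day 9 co-transfer sites (adjusted p = 0.102, 0.0987 and 0.1).

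Markers of decidual stroma differed between the same groups of day 9. The decidual stroma markers (10 genes) summed to 98959 to 101838 in co-transfer, 44885 to 45730.4 in rat and 82013 to 86101 in mouse sites of day 9, with 8 of the 10 higher and 0 lower in co-transfer than in rat sites. On day 7 they summed to 109648 to 114713 in co-transfer, 108076 to 109472 in rat and 82726 to 83678 in mouse sites. Trophoblast markers (7 genes, all of them mouse probes) summed to 1472 to 1569 in co-transfer, 837 to 1156 in rat and 22053 to 25006 in mouse sites of day 9. Their part in the Tgfb2 and Lgals3 differences was not tested.

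Tgfb1 gave no call that both of its probe sets shared. Its probe set 1420653_at had 555 and 563 in co-transfer, 446 and 340.2 in rat and 514 and 636 in mouse sites of day 9, and 351, 273 and 439 in co-transfer, 364 and 431 in rat and 466 and 425 in mouse sites of day 7. Rat sites of day 9 lay below the other 2 groups of that day, with 0.46 (adjusted p = 0.0911) for co-transfer minus rat and -0.49 (adjusted p = 0.0776) for rat minus mouse. Its only called difference was the rise of co-transfer sites between the days, 0.60 (SE 0.17, adjusted p = 0.0306), which was lost without replicate 1 or 2 of either day (adjusted p = 0.121 and 0.132 for day 9, 0.0628 and 0.0766 for day 7). The change in its co-transfer minus rat difference between the days, 0.62 (adjusted p = 0.107), passed without replicate 3 of the day 7 co-transfer sites (adjusted p = 0.0404).

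The other Tgfb1 probe set, 1445360_at, was dim. It had 278 and 194 in co-transfer, 259 and 327 in rat and 128 and 140.3 in mouse sites of day 9, and did not follow 1420653_at (r = -0.186 over 13 arrays). It was higher in rat than in mouse sites by 0.87 (adjusted p = 0.0119) and rose in rat sites between the days by 0.66 (adjusted p = 0.0329). The calls were lost without replicate 1 of the day 9 mouse sites (adjusted p = 0.057) and without replicate 2 of the day 7 rat sites (adjusted p = 0.217). This probe set had passed the filter on 2 arrays only, in co-transfer and rat sites of day 9, where its means were highest. Its calls for rat sites of day 9 are therefore no separate support.

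Il10 was near the bottom of the scale on all arrays. Its signals were 68.2 and 52.1 in co-transfer, 105 and 66.2 in rat and 66.1 and 49.9 in mouse sites of day 9, and 45.1, 37.8 and 116 in co-transfer, 49.7 and 54.9 in rat and 29.3 and 65.5 in mouse sites of day 7. Each group overlapped its neighbour in the order of means, and no array put Il10 above the filter. A difference in Il10 was therefore not detectable here.

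Fasl, the gene for Fas ligand, was higher on day 9 in 1 of its 2 probe sets, which lay low on the scale. That probe set, 1449235_at, had 184 and 172 in co-transfer, 143 and 154 in rat and 266 and 358 in mouse sites of day 9, against 51.8, 114 and 103 in co-transfer, 57.3 and 16.2 in rat and 58.5 and 103 in mouse sites of day 7. Every day 9 array exceeded every day 7 array in this probe set. It had passed the filter only through the 2 mouse arrays of day 9, where it was high. Its calls against that group, the rise of mouse sites included, are therefore no separate support. Some day 7 signals lay under the added 57.1, so the sizes of its differences are loosely set. Fasl rose between the days by 1.17 (SE 0.27, adjusted p = 0.00675) in rat and 1.43 (SE 0.27, adjusted p = 0.00208) in mouse sites, and the difference in co-transfer sites was 0.71 (adjusted p = 0.0594). The rise of rat sites was lost without replicate 2 of the day 7 rat sites (adjusted p = 0.0592), whose signal was the lowest of all.

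On day 9 Fasl was lower in rat than in mouse sites (log2 difference -0.83, SE 0.27, adjusted p = 0.0382), the group that let it into the test. This call was lost under 7 alternatives, among them without replicate 1 or 2 of the rat sites (adjusted p = 0.135 and 0.101). Co-transfer sites differed from rat sites by 0.19 (adjusted p = 0.622) and from mouse sites by -0.64 (adjusted p = 0.186). The other Fasl probe set, 1418803_a_at, was not tested. Its signals were 94.1 to 194 on day 9 and 44.3 to 183 on day 7, and both the days and the 3 groups of day 9 overlapped. T and B cell markers (7 genes) summed to 910.1 to 989 in co-transfer, 1133 to 1217 in rat and 863 to 1437 in mouse sites of day 9, but only 1 of them was tested. Of 11 tested natural killer cell markers, cells known to carry Fas ligand, 0 were higher and 10 lower in rat than in mouse sites of day 9, and their sums are given beside Havcr2 and Lgals3. The part of either cell type in the Fasl signal was not tested.

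**Figure D3:**
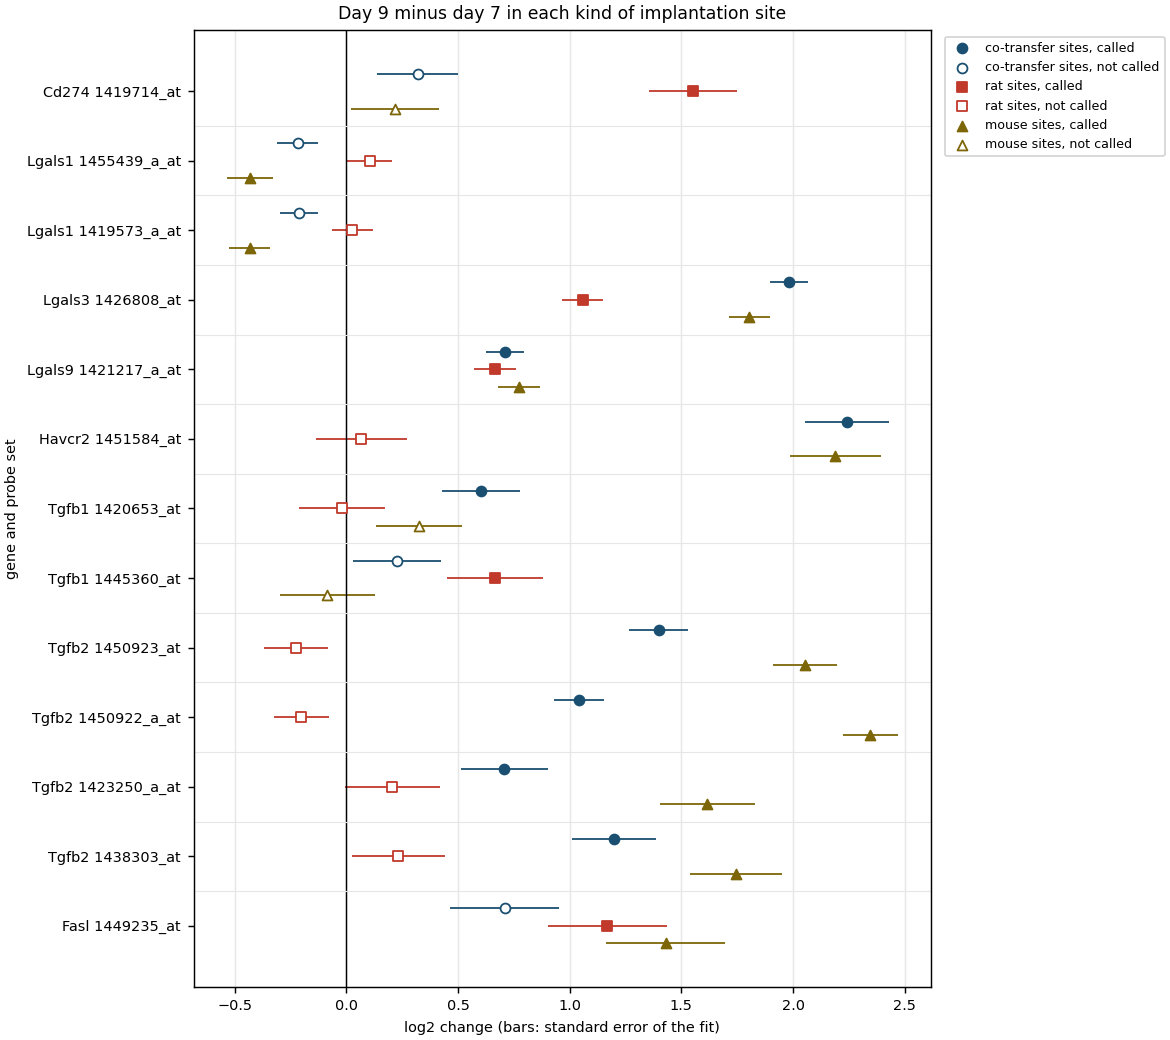
Log2 differences of day 9 minus day 7 in co-transfer, rat and mouse sites for the 13 tested probe sets, with bars for the standard error of the fit. Filled symbols passed an adjusted p of 0.05. Havcr2 and the 4 Tgfb2 probe sets passed in co-transfer and mouse sites and not in rat sites, Cd274 passed in rat sites only, and Lgals3 and Lgals9 passed in all 3.

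Genes that work with these ligands were counted from lists, with 1 probe set a gene and no overlap with the 10 genes. Their counts stand against 17.1% higher and 14.4% lower over all tested probe sets for rat minus mouse of day 9 (median 0.06), 15.7% and 18% for co-transfer minus rat of day 9 (median -0.07), and 12.9% and 11.4% for rat minus mouse of day 7 (median 0.03). The lists are short, and nothing particular to a list is read from its counts. The interferon gamma axis is known to induce Cd274. Of its 9 tested genes 8 were higher and 0 lower in rat than in mouse sites of day 9 (median 1.38), and 8 were lower and 0 higher in co-transfer than in rat sites (median -1.53). The second count was 5 without replicate 1 of the rat sites. Igtp, an interferon-induced GTPase, averaged 1526 ± 27.8 in co-transfer, 10579.9 ± 474 in rat and 933 ± 169 in mouse sites (SD, n = 2 each), -2.75 (adjusted p = 1.11e-06) for co-transfer minus rat and 3.44 (adjusted p = 2.49e-07) for rat minus mouse. Gbp2, a guanylate-binding protein gene, averaged 1120.1 ± 18.5 in co-transfer, 5932 ± 384 in rat and 911 ± 255 in mouse sites, with 2.65 (adjusted p = 1.84e-06) for rat minus mouse. Cxcl10, a chemokine that attracts T cells, averaged 131 ± 135 in co-transfer and 863 ± 165 in rat sites, -2.49 (adjusted p = 0.00397). Lgals9 went against these genes on day 9, being lower in rat than in mouse sites (log2 difference -0.55, adjusted p = 0.00147). Cd274 was not called in that comparison (adjusted p = 0.0538).

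On day 7, 4 of the 9 interferon gamma genes were lower and 0 higher in rat than in mouse sites, the direction that Cd274 and Lgals9 also took. Igtp averaged 489 ± 86.8 in rat and 2389.6 ± 124 in mouse sites, -2.17 (adjusted p = 2.32e-05), and Gbp2 432 ± 24.7 in rat and 1757 ± 10.4 in mouse sites, -1.89 (adjusted p = 6.07e-05). Uterine epithelium markers were also highest in rat sites of day 9 and lower in rat than in mouse sites of day 7. Between co-transfer and mouse sites of day 9 they did not move with these genes. There 0 of the 10 markers were higher and 4 lower in co-transfer sites, against 1 higher and 0 lower of the 9 interferon gamma genes. The 10 markers summed to 11054 to 11582 in co-transfer, 87788 to 90151 in rat and 23897 to 24119.9 in mouse sites of day 9 and to 15341 to 15668 in co-transfer, 15139 to 15407 in rat and 41638 to 41793 in mouse sites of day 7, and their part in the Cd274 and interferon gamma differences was not tested.

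In the list of PD-1 and TIM-3 partners and other checkpoint ligands, 3 of 14 tested genes were higher and 4 lower in rat than in mouse sites of day 9 (median 0.05), and 4 were higher and 3 lower in co-transfer than in rat sites (median -0.16). Havcr1, a relative of Havcr2 also called TIM-1, averaged 881 ± 64.3 in co-transfer, 135 ± 34.5 in rat and 1146 ± 19.5 in mouse sites of day 9, 2.29 (adjusted p = 3.69e-06) for co-transfer minus rat and -2.65 (adjusted p = 1.41e-06) for rat minus mouse. Vtcn1, a checkpoint ligand also called B7-H4 and known in epithelia, went the other way, with 78.7 ± 4.38 in co-transfer, 359.9 ± 63.7 in rat and 65.8 ± 15.3 in mouse sites, -1.61 (adjusted p = 0.000444) for co-transfer minus rat and 1.76 (adjusted p = 0.000263) for rat minus mouse. On day 7 Havcr1 was higher in rat than in mouse sites by 1.06 (adjusted p = 0.00131) and Vtcn1 was lower, at -0.96 (adjusted p = 0.0136). The Vtcn1 call of day 7 was lost without replicate 1 of the mouse sites (adjusted p = 0.0964) and when rat replicate 1 was left out (adjusted p = 0.104). The 4 genes lower in rat sites of day 9 became 2 without replicate 1 of the mouse sites or replicate 1 of the rat sites.

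In the TGF-beta activation and signalling list, 11 of 21 tested genes were higher and 3 lower in rat than in mouse sites of day 9 (median 0.39). The count of higher genes was 6 with only the arrays compared, and 7 without replicate 2 of the mouse sites or replicate 1 of the rat sites. Between co-transfer and rat sites 5 were higher and 8 lower in co-transfer sites (median -0.32). Thbs1, the gene for thrombospondin, which activates latent TGF-beta, averaged 222 ± 39.7 in co-transfer, 1662 ± 110.1 in rat and 257 ± 44.3 in mouse sites of day 9, -2.63 (adjusted p = 4.02e-07) for co-transfer minus rat and 2.46 (adjusted p = 6.4e-07) for rat minus mouse. Ltbp1, which binds latent TGF-beta in the matrix, averaged 435 ± 38.1 in co-transfer, 2283 ± 42.9 in rat and 492 ± 37.8 in mouse sites, -2.25 (adjusted p = 1.49e-07) for co-transfer minus rat and 2.09 (adjusted p = 2.3e-07) for rat minus mouse.

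On day 7, 2 genes of the TGF-beta list were higher and 6 lower in rat than in mouse sites. Thbs1 averaged 271 ± 16.6 in rat and 2965 ± 180.2 in mouse sites, -3.20 (adjusted p = 1.41e-06), the opposite of its day 9 direction. Smad6, an inhibitor of signalling in this family, averaged 1969 ± 37.5 in rat and 678 ± 7.85 in mouse sites, 1.46 (adjusted p = 5.77e-05). The count of lower genes was 3 without replicate 1 or 2 of the mouse sites, and 2 when rat replicate 2 was left out. Smooth muscle markers summed to 50513 to 52782 in co-transfer, 72676 to 74964 in rat and 51014 to 53242 in mouse sites of day 9, and their part in the TGF-beta list was not tested.

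Among other galectins and galectin ligands, 2 of 9 tested genes were higher and 2 lower in rat than in mouse sites of day 9 (median -0.07), and 0 were higher and 3 lower in co-transfer than in rat sites (median -0.15). Cd44, a glycoprotein that galectin 9 binds, averaged 1077 ± 32 in co-transfer, 2855 ± 248 in rat and 699 ± 24.7 in mouse sites, -1.36 (adjusted p = 8.08e-06) for co-transfer minus rat and 1.94 (adjusted p = 6.79e-07) for rat minus mouse, so it was high in the rat sites where Lgals9 was low. Lgals3bp, the gene for a glycoprotein that binds galectin 3, was lower in co-transfer than in rat sites (log2 difference -0.97, adjusted p = 0.000194), with means of 1469.7 ± 75 in co-transfer and 2932 ± 196 in rat sites. Lgals2, another galectin, was lower in rat than in mouse sites (adjusted p = 0.000955), with means of 332 ± 16.1 in rat and 732 ± 164 in mouse sites. On day 7, 3 of the 9 were lower and 0 higher in rat than in mouse sites, among them Cd44 at -0.69 (adjusted p = 0.0014) and Ptprc, the leukocyte antigen CD45, at -0.43 (adjusted p = 0.00632). Without replicate 2 of the day 7 mouse sites the count was 1 and the Ptprc call was lost (adjusted p = 0.0543), and the 2 lower genes of day 9 became 1 when any of the 4 rat and mouse arrays was left out.

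In the list of IL-10 signalling and regulatory cells, 6 of 12 tested genes were higher and 2 lower in rat than in mouse sites of day 9 (median 0.48), and 3 were higher and 4 lower in co-transfer than in rat sites (median -0.07). Arg1, arginase of alternatively activated macrophages, averaged 19.1 ± 5.52 in co-transfer, 472 ± 4.95 in rat and 31.1 ± 16.2 in mouse sites. Both differences from rat sites were called (adjusted p = 1.91e-06 for co-transfer and 3.41e-06 for mouse sites), but no fold is given because the co-transfer and mouse signals lay under the added 57.1. Ikzf2, the gene for the transcription factor Helios, averaged 308 ± 51.1 in co-transfer, 916 ± 131 in rat and 314 ± 53.2 in mouse sites, -1.41 (adjusted p = 0.000309) for co-transfer minus rat and 1.39 (adjusted p = 0.000369) for rat minus mouse. On day 7, 1 was higher and 5 were lower in rat than in mouse sites, with Il4ra, an interleukin receptor chain, at -1.50 (adjusted p = 4.73e-05). Arg1 was also among them (adjusted p = 0.000267), with 8.95 ± 2.76 in rat and 139 ± 19 in mouse sites. The count of lower genes in the day 9 co-transfer to rat comparison was 1 and 2 without replicate 1 and replicate 2 of the rat sites. The day 7 count of lower genes was 3 without replicate 2 of the mouse sites or either rat array, and that of higher genes was 0, 2 and 0 without replicate 2 of the mouse sites, replicate 1 of the rat sites and replicate 2 of the rat sites.

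Of 8 tested genes of the Fas pathway and other death ligands, 2 were higher and 0 lower in rat than in mouse sites of day 9 (median 0.24), and 1 was higher and 3 lower in co-transfer than in rat sites (median -0.18). Tnfsf10, the gene for the death ligand TRAIL, averaged 370.4 ± 4.67 in co-transfer, 1648 ± 19 in rat and 294 ± 54.4 in mouse sites, -2.00 (adjusted p = 9.39e-06) for co-transfer minus rat and 2.29 (adjusted p = 3.59e-06) for rat minus mouse, the opposite order of rat and mouse sites to Fasl. Tnfrsf1a, a TNF receptor gene, was higher in rat than in mouse sites by 0.40 (adjusted p = 0.017), and Fadd, an adaptor below Fas, lower in co-transfer than in rat sites (log2 difference -0.54, adjusted p = 0.0499). Leaving out replicate 1 of the day 9 rat sites ended both calls (adjusted p = 0.0616 for Tnfrsf1a and 0.283 for Fadd), as did replicate 2 of the rat sites and replicate 1 of the mouse sites for Tnfrsf1a and either co-transfer array for Fadd. On day 7, 1 gene, Tnfsf10, was lower in rat than in mouse sites, at -0.94 (adjusted p = 0.00252). Without replicate 1 of the day 9 rat sites, 1 was higher in rat than in mouse sites. The 3 genes lower in co-transfer than in rat sites became 1 under 9 of 16 alternatives, among them leaving out either day 9 co-transfer array.

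**Figure D4:**
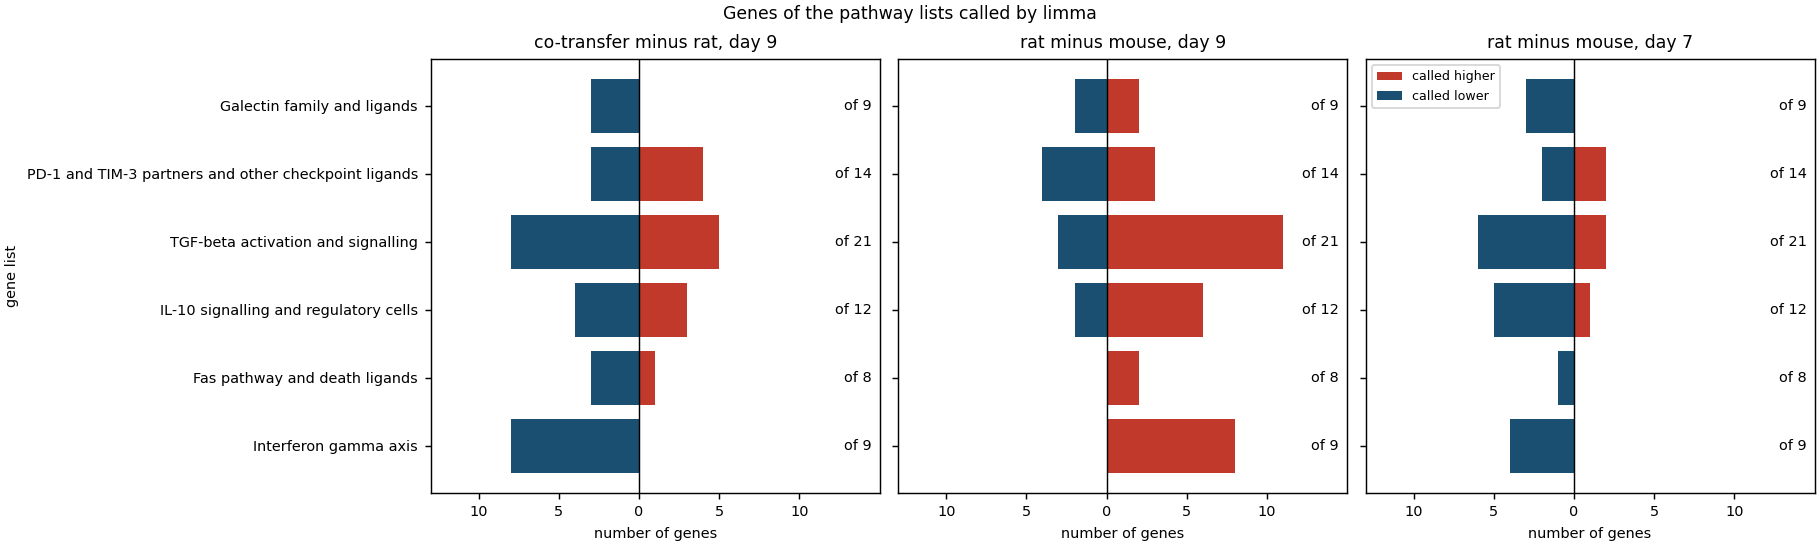
Number of genes of each partner list called higher (right of 0) or lower (left of 0) in co-transfer minus rat sites of day 9, rat minus mouse sites of day 9 and rat minus mouse sites of day 7, with the number tested at the right. The interferon gamma axis has 8 of 9 lower in co-transfer than in rat sites and 8 of 9 higher in rat than in mouse sites of day 9, and 4 of 9 lower in rat than in mouse sites of day 7.

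The genes whose log2 signal followed each member most closely were taken by Pearson correlation over the 13 arrays, which share 6 groups and 4 wash runs. For Cd274 they were Zxdc (0.959), Reep5 (0.946) and Endod1 (0.945), and for Havcr2 Adamts5 (0.984), Csf1r (0.983) and Shisa3 (0.982). For Lgals3 they were Htra3 (0.997), Adam8 (0.99) and Klrg1 (0.987), Klrg1 being an inhibitory receptor of natural killer cells. Tgfb2 had Lipg (0.989), Tom1 (0.988) and Tmem150a (0.987), and Lgals9 had Mospd1 (0.974), Cpm (0.97) and Avil (0.969). Lgals1 was closest to Rps3 (0.95), Rpl35 (0.949) and Tagln (0.944), among them genes of ribosomal proteins and of a smooth muscle protein. Tgfb1 had Bmp1 (0.944), Necap2 (0.937) and Vti1b (0.912), and Fasl had Zfand3 (0.957), Mtmr7 (0.949) and Klrb1b (0.932). These correlations describe the arrays and carry no test.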

How the data were processed

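RNA of 13 samples was hybridised to Affymetrix Mouse430_2 arrays. The deposited values are signal intensities made by the authors with MAS5, per the submitters' processing notes (no version is given in the sources used here). Their trimmed mean, without the 2% at each end, was 500 on every array. From these, log2(signal + 57.1) was computed, the added value being the 25th percentile of all signals. Probe sets above the 60th percentile on at least 2 arrays were kept (22155 of 45101, without 64 control probe sets). They were fitted over all 13 arrays and 6 groups with limma 3.58.1 in R 4.3.3, with 7 residual degrees of freedom and Benjamini-Hochberg adjustment within each of 9 comparisons and 2 changes of a difference between days. The number of arrays limits the precision. Platform annotation gave 1 symbol to 34958 probe sets, several to 932 and none to 9211, and only the first were named. Partner genes were named by the largest called differences of each list, and the genes most like a member by Pearson's r. The scripts were tested on simulated data. The members and gene lists were chosen with earlier results of these data known. Replicate numbers did not pair the samples (correlations of deviations from -0.21 to 0.091 over 15 pairs).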

Additional observations from a re-analysis of the deposited data

Results flagged for a closer look

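Differences between groups that themselves changed from day 7 to day 9, by a limma interaction term, stood out for 5 genes. For rat minus mouse sites, day 9 minus day 7, the change was 1.33 (adjusted p = 0.00491) for Cd274, -0.75 (adjusted p = 0.00189) for Lgals3 and -2.12 (adjusted p = 0.000367) for Havcr2. It was 0.54 (adjusted p = 0.0174) and 0.46 (adjusted p = 0.0221) for the Lgals1 probe sets 1455439_a_at and 1419573_a_at. For Tgfb2 it was -2.28 (adjusted p = 2.02e-05) in 1450923_at, -2.55 (adjusted p = 3.35e-06) in 1450922_a_at, -1.41 (adjusted p = 0.00566) in 1423250_a_at and -1.51 (adjusted p = 0.00317) in 1438303_at. The last of these had passed the filter only in co-transfer and mouse sites of day 9, where it was high, so its value is no separate support. The Lgals1 values lost their calls without replicate 2 of the day 7 mouse sites (adjusted p = 0.0505 and 0.0563) and without replicate 2 of the day 7 rat sites (adjusted p = 0.057 and 0.073), and 1419573_a_at also without replicate 1 of the day 7 mouse sites or replicate 2 of the day 9 rat sites (adjusted p = 0.0563 and 0.0561).

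For co-transfer minus rat sites, the change was -1.23 (adjusted p = 0.00785) for Cd274, 0.92 (adjusted p = 0.000559) for Lgals3 and 2.18 (adjusted p = 0.000353) for Havcr2. For Tgfb2 it was 1.62 (adjusted p = 0.000238) in 1450923_at, 1.24 (adjusted p = 0.00049) in 1450922_a_at and 0.97 (adjusted p = 0.0299) in 1438303_at, against 0.50 (adjusted p = 0.235) in 1423250_a_at. Because of its route through the filter, 1438303_at is no separate support here either. The value of 1438303_at lost its call without replicate 1 of the day 7 rat sites, replicate 2 of the day 9 rat sites or replicate 1 of the day 9 co-transfer sites (adjusted p = 0.102, 0.0987 and 0.1). Both sets of differences share the rat arrays, and each kind of site had its day 7 and day 9 arrays in different wash runs.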

How the results depend on the processing

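Over 143 results of single probe sets and 2394 values under alternatives, 2243 kept their direction and side of the threshold, 105 lost a call, 46 gained one and 0 called values changed sign. Of 68 calls, 48 were lost under no alternative that kept the probe set in the test. Alternatives under which a probe set was no longer tested were not counted, which favours dim probe sets. The rise in mouse sites, for example, had 13 alternatives for Fasl and 16 for Havcr2. Counts of called probe sets that moved by over 1.5 times were those of 4 comparisons. Rat minus mouse of day 7 had 5, against 3 with no filter. Co-transfer minus mouse of day 7 had 5, against 3 with no filter, with quantile normalization or with a replicate block, and 2 when only the arrays compared were fitted. Co-transfer minus mouse of day 9 had 1, against 2 with the median signal (173.7) as pseudocount or with quantile normalization, 3 with a filter at the 75th percentile, an intensity trend or wash run as a random block (estimated correlation -0.086), and 0 with no filter, with median centring or with only the arrays compared. Rat sites between the days had 5, against 2 with the filter at the 75th percentile. Leaving out 1 array gave 1 to 4 for rat minus mouse and 2 to 5 for co-transfer minus mouse of day 7, 0 to 1 for co-transfer minus mouse of day 9 and 3 to 5 for rat sites between the days. It gave 0 to 0 for co-transfer minus rat of day 7, 7 to 9 for rat minus mouse and 7 to 8 for co-transfer minus rat of day 9, 6 to 8 for co-transfer and 9 to 10 for mouse sites between the days, and 7 to 9 and 5 to 7 for the changes of the rat minus mouse and co-transfer minus rat differences. Where this left 1 array in a group, that array was assumed to vary like the other groups. Replicate numbers did not pair the samples, and the replicate block moved no other count of called members by over 1.5 times. Over all probe sets, co-transfer minus rat of day 7 had 214 calls, against 46 with the replicate block, 96 with hybridisation date as a block, 25 with only the arrays compared, 76 with no filter, 112 with median centring and 333 to 389 with array weights, the stricter filter, a random block or an intensity trend. Co-transfer minus mouse of day 9 had 1708, against 375 with only the arrays compared and 947 with no filter, and rat minus mouse of day 9 had 6982, against 4166 with only the arrays compared. Under median centring the median of all probe sets was -0.27 in place of 0.02 in mouse and -0.22 in place of 0.03 in rat sites between the days, -0.13 in place of 0.05 for co-transfer minus mouse of day 7, 0.11 in place of 0.00 for that of day 9, 0.08 in place of -0.07 for co-transfer minus rat of day 9 and 0.16 in place of -0.08 for the change of that difference. Centring also moved the share of higher calls over all probe sets to 66.5% in place of 51.1% for co-transfer minus mouse of day 9 and to 39.3% in place of 59.3% for co-transfer minus rat of day 7. For the change of the co-transfer minus rat difference that share was 71.5% in place of 47.5%, and with no filter it was 41.1% for co-transfer minus mouse of day 9 and 44.7% for co-transfer minus rat of day 7. Of 550 values for named partner genes, 530 kept their call, 20 lost it and 0 reversed, again without alternatives that left a gene untested. With 2 or 3 arrays in a group, and with Il10 and Pdcd1lg2 under the filter and Fasl near it, differences of these genes were little resolved.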
